A study of Mus musculus with 8 samples.

Results

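Binding of PRDM16 was examined around 9 genes of the ventral telencephalon and of cortical interneurons: Dlx1, Dlx2, Dlx5, Dlx6, Gad1, Gad2, Lhx6, Gsx2 and Prox1. The genes were picked by name from 21883 protein-coding genes of the mouse RefSeq annotation, with earlier results of these data known. A peak of a chromatin immunoprecipitation and sequencing (ChIP-seq) list was assigned to a gene when its summit lay in the gene body, or within 100 kb of the nearer gene end with no closer protein-coding gene. By this rule 28 peaks were assigned to the 9 genes in 4 lists. The cKO lists held 3 and 0 of them, out of 4553 and 3088 peaks in replicates 1 and 2. The WT lists held 8 and 17, out of 13852 and 26652 peaks.

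Chromatin came from whole lysates of mouse cortex at E15.5, precipitated with a PRDM16 antibody. The cKO embryos were Emx1Ires-Cre; Prdm16flox/flox, so Cre was expressed from the Emx1 locus and acted on floxed Prdm16 alleles. The WT embryos were Prdm16 flox/flox and carried the same floxed alleles without Cre. Each genotype had 2 ChIP libraries, and the labels do not say whether these came from separate embryos, litters or pools. The question behind the design is where PRDM16 sits on chromatin in the fetal cortex, and the cKO shows what the antibody pulls down when the gene is deleted in dorsal cells. The input libraries were not analysed here.

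PRDM16 is a zinc-finger transcriptional regulator with a PR domain, and in the cortex it is made by the radial glia that act as stem cells. GABAergic interneurons are not made there: they are born in the ganglionic eminences of the ventral telencephalon and migrate into the cortex. In the eminences the homeodomain factor GSX2 acts in progenitors, the DLX factors act in progenitors and young GABAergic neurons, and LHX6 and PROX1 act in interneurons of the medial and caudal eminence. Emx1 is active in the dorsal telencephalon, so the Cre line does not target interneurons of ventral origin, which are a minority of the cells of a cortex lysate. Whether a site had fewer occupied cells or weaker occupancy per cell cannot be told apart in such a lysate. Peak lists measure no expression, so the tissue label could not be checked against marker genes.

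The peaks were unevenly spread over the 9 genes. Dlx2 and Prox1 together took 20 of the 28 peaks, Dlx6, Gsx2, Gad1 and Dlx5 took the others, and Dlx1, Gad2 and Lhx6 had none in any list. At least 1 peak in both cKO lists was found for 0 of the 9 genes, against 7.70% of all protein-coding genes. At least 1 peak in both WT lists was found for 4 of 9, against 20.5% of all genes. The 4 were Dlx2, Dlx6, Gsx2 and Prox1. A gene with a longer stretch of genome assigned to it can collect more peaks. The stretch had a median of 80.7 kb for the 9 genes and 45.8 kb for all genes. Prox1 had the longest of the 9, at 250.6 kb, and Dlx2 had 108.1 kb. Per megabase of assigned genome, the 9 genes held 3.76 and 0 peaks in the cKO replicates and 10.04 and 21.3 in the WT replicates. For all protein-coding genes the densities were 2.23 and 1.504 in the cKO replicates and 5.84 and 11.4 in the WT replicates. In these, each peak counted once, but bases in overlapping gene bodies counted for each gene. That lowers the densities of all genes beside those of the 9. In the WT replicates Prox1 by itself held 11.97 and 19.96 peaks per megabase, and Dlx2 held 18.5 and 74.0.

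**Figure D1:**
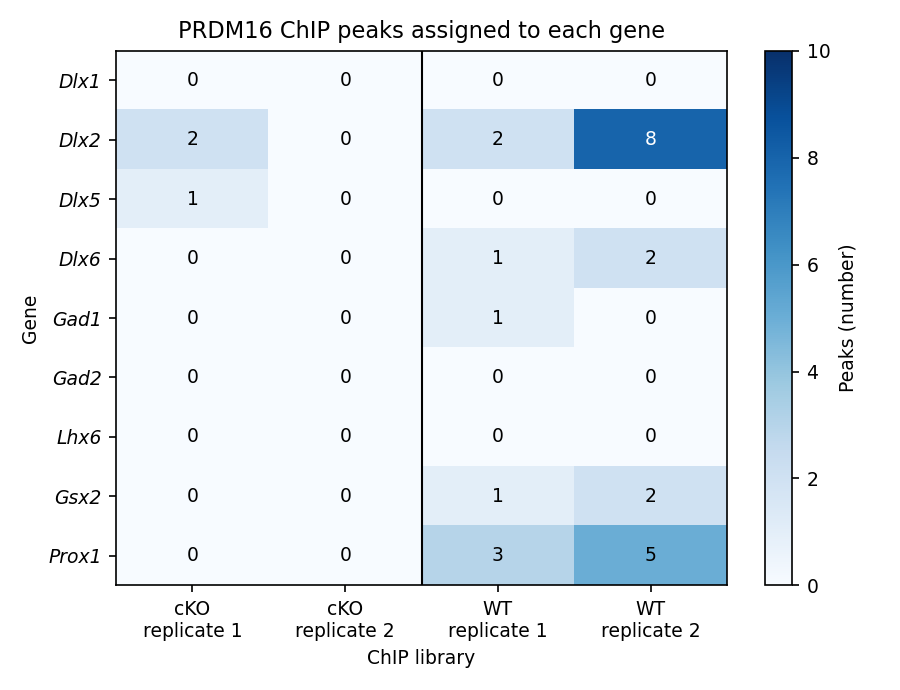
Number of PRDM16 ChIP peaks assigned to each of the 9 genes (rows) in the cKO and WT libraries (columns), with the number printed in each cell and shown by its colour. Dlx2 and Prox1 hold the most, with 8 and 5 in WT replicate 2, and cKO replicate 2 is at 0 throughout.

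Fewer peaks were assigned to the 9 genes in both cKO lists than in both WT lists, with a mean of 1.5 ± 2.12 in cKO and 12.5 ± 6.36 in WT (SD, n = 2 each), a ratio of 0.12. The whole lists were also shorter in the cKO, with 3820.5 ± 1036 peaks in cKO and 20252 ± 9051 in WT, a ratio of 0.189. As a share of its own list, the 9 genes took 0.0659% of cKO replicate 1 (95% Wilson interval 0.0224 to 0.194), and 0 of 3088 peaks of cKO replicate 2, which allows a share of up to 0.0972% by the limit of 3 counts and up to 0.124% by the Wilson interval. In the WT the shares were 0.0578% (0.0293 to 0.114) in replicate 1 and 0.0638% (0.0398 to 0.102) in replicate 2. The share in cKO replicate 1 was thus not distinguishable from those in the WT lists within counting error. Intervals cover counting error only. With every list reduced to its 3088 most significant peaks, the 9 genes kept 1 and 0 peaks in the cKO replicates and 1 and 1 in the WT replicates.

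More peaks in both WT lists than in both cKO lists were found for 3 of the 9 genes, Dlx6, Gsx2 and Prox1, against 15.7% of all protein-coding genes. More peaks in both cKO lists than in both WT lists were found for 0 of the 9, against 1.70% of all genes. An exact two-sided permutation test over the 4 libraries gave p = 0.33 for each of the 3 and p = 0.667 for Dlx2. A p below 0.33 cannot be reached with 2 libraries against 2. Over all 21883 genes the smallest Benjamini-Hochberg adjusted p of this exact permutation test was 1, with 0 genes at an unadjusted p under 0.05, so no difference in peak number passed a test at any gene. The WT files carry a library identifier that the cKO files do not, and genotype and whatever that identifier marks cannot be told apart.

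A peak in both WT lists was found at 6 sites: 2 at Prox1, 2 at Dlx2, 1 at Dlx6 and 1 at Gsx2. None of the 6 overlapped a peak of either cKO list, and 0 regions were found in both cKO lists at the 9 genes. A region in both WT lists and neither cKO list was found for 4 of the 9 genes, against 16.6% of all genes. Genome-wide, 9232 of 10090 regions of both WT lists (91.5%) were likewise in neither cKO list. The fold enrichment is the authors' ratio of summit reads to local background, with 1 added to both. Its mean over the WT replicates had a median of 7.64 over the 6 regions and 7.46 over all 10090.

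Prox1 encodes a prospero-type homeodomain factor of caudal-eminence interneurons and of hippocampal granule neurons. The cKO lists held 0 and 0 peaks around it, and the WT lists held 3 and 5. Its strongest region was also the strongest of all 9 genes. It lay at chr1:190190168-190190921 (mm10), 19726 bp upstream of the gene and inside the antisense non-coding gene Prox1os, with 13.1-fold enrichment in WT replicate 1 and 16.5-fold in WT replicate 2 (mean 14.8 ± 2.45, SD, n = 2). Its summits in the replicates were 43 bp apart and rested on 24 and 45 reads over local backgrounds of 0.912 and 1.78 reads. The mean fold exceeded that of 89.5% of the regions found in both WT lists. This site was the one WT peak of the 9 genes that stayed in the lists reduced to 3088 peaks.

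The other Prox1 region of both WT lists lay in the gene body at chr1:190137803-190138494, 51673 bp from the first, with 7.32-fold and 8.44-fold enrichment in WT replicates 1 and 2 (mean 7.88 ± 0.796). The summits were 12 bp apart. The remaining Prox1 peaks were each found in a single library. WT replicate 1 had a 5.23-fold peak 49677 bp upstream, and WT replicate 2 had 3 further peaks in the gene body with folds of 4.47, 3.96 and 4.80. The last of these 3 had its summit 534 bp from an annotated start of Prox1. The nearest cKO summits to Prox1 were 557554 and 127185 bp away in replicates 1 and 2.

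Among the 7 genes with an annotated promoter window, Prox1 alone had a peak overlapping it. A window runs from 250 bases before to 50 bases after a RefSeq start. The 3.96-fold peak of WT replicate 2 (chr1:190169282-190169551) covered 86 bases of the window at the more downstream of its RefSeq starts, at position 190169515 on the minus strand. Its summit lay 200 bp downstream of that start, in the gene body and outside the window. The 7 genes, which leave out Dlx5 and Dlx6, had 10 windows in all. The cKO replicate 1 peak close to an end of Dlx5, described below, therefore could not enter this count. The lists overlapped 0 and 0 of these windows in the cKO replicates and 0 and 1 in the WT replicates. Of all 32851 windows, the cKO lists overlapped 4.27% and 3.07% and the WT lists 3.33% and 6.56%. The window is shown because, of the 10 examined, it is the one with a called peak. It reads 5′ to 3′ on the minus strand (chr1:190169466-190169765, RefSeq GRCm38.p6, which is mm10), and the capitals mark the bases inside the peak.
Prox1 promoter window: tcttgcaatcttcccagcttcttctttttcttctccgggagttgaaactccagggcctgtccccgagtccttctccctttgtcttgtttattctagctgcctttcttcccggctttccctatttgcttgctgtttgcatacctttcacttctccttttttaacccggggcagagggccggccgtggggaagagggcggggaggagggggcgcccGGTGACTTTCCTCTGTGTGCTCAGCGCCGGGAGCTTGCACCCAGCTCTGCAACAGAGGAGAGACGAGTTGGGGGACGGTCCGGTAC
The window had a GC content of 57.3%, against a mean of 53.8% over all windows. None of the 6 motifs searched on both strands was found in it. The search covered 86 of the 270 bases of the peak and did not reach its summit. The motifs were TAATTA, a core of homeodomain sites (in 5.29% of all windows), CANNTG, the E-box (72.3%), ACAAT, a core of SOX sites (31.0%), ATGCAAAT, the POU octamer (1.74%), the full palindromic NFI site (0.0365%), and TTGGCA, a shorter NFI form (14.1%). The last 2 can overlap, as both start with TTGGC.

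Dlx2 encodes a homeodomain factor that lies beside its relative Dlx1, with 9426 bp between the gene bodies. The cKO lists held 2 and 0 peaks at Dlx2, and the WT lists 2 and 8, so the genotypes overlapped in number. None of the peaks lay in the Dlx2 body or between Dlx1 and Dlx2. All lay on the far side of Dlx2, upstream of it on the minus strand. Of the 12 peaks, 9 fell more than 70 kb upstream of the gene, in a span of 11207 bp between summits. That span held 1 peak of cKO replicate 1, 2 peaks of WT replicate 1 and 6 of WT replicate 2.

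Both Dlx2 regions of the WT lists were in this distant cluster. The first, chr2:71625415-71625753, had 6.66-fold enrichment in WT replicate 1 and 8.54-fold in WT replicate 2 (mean 7.60 ± 1.33, SD, n = 2), with summits 2 bp apart, 78824 and 78826 bp from the gene. The second, chr2:71636606-71636922, had 9.01-fold and 6.35-fold enrichment (mean 7.68 ± 1.88), with summits 89983 and 90031 bp from the gene. The order of the sites by fold thus differed between the WT replicates. Between them WT replicate 2 held 4 weaker peaks that WT replicate 1 did not, with folds of 4.21, 4.87, 4.11 and 4.51.

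A cKO list also held a peak within the Dlx2 cluster. The peak of cKO replicate 1 at chr2:71629509-71629674 had 4.07-fold enrichment and overlapped the 4.11-fold peak of WT replicate 2, with the summits 82818 and 82871 bp from the gene. It was the single place at the 9 genes where a cKO peak overlapped a WT peak. The peaks rested on 18 reads over a background of 3.67 reads in cKO replicate 1 and 12 reads over 2.16 in WT replicate 2. Neither cKO replicate 2 nor WT replicate 1 held it. The other Dlx2 peak of cKO replicate 1, 34414 bp upstream, had 4.04-fold enrichment and overlapped no WT peak. Nearest to Dlx2 was a WT replicate 2 peak 1375 bp upstream of its start, with 3.85-fold enrichment from 10 reads, which WT replicate 1 did not hold. WT replicate 2 had a further peak 54468 bp upstream, at 3.61-fold and inside the non-coding gene Gm36857.

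**Figure D2:**
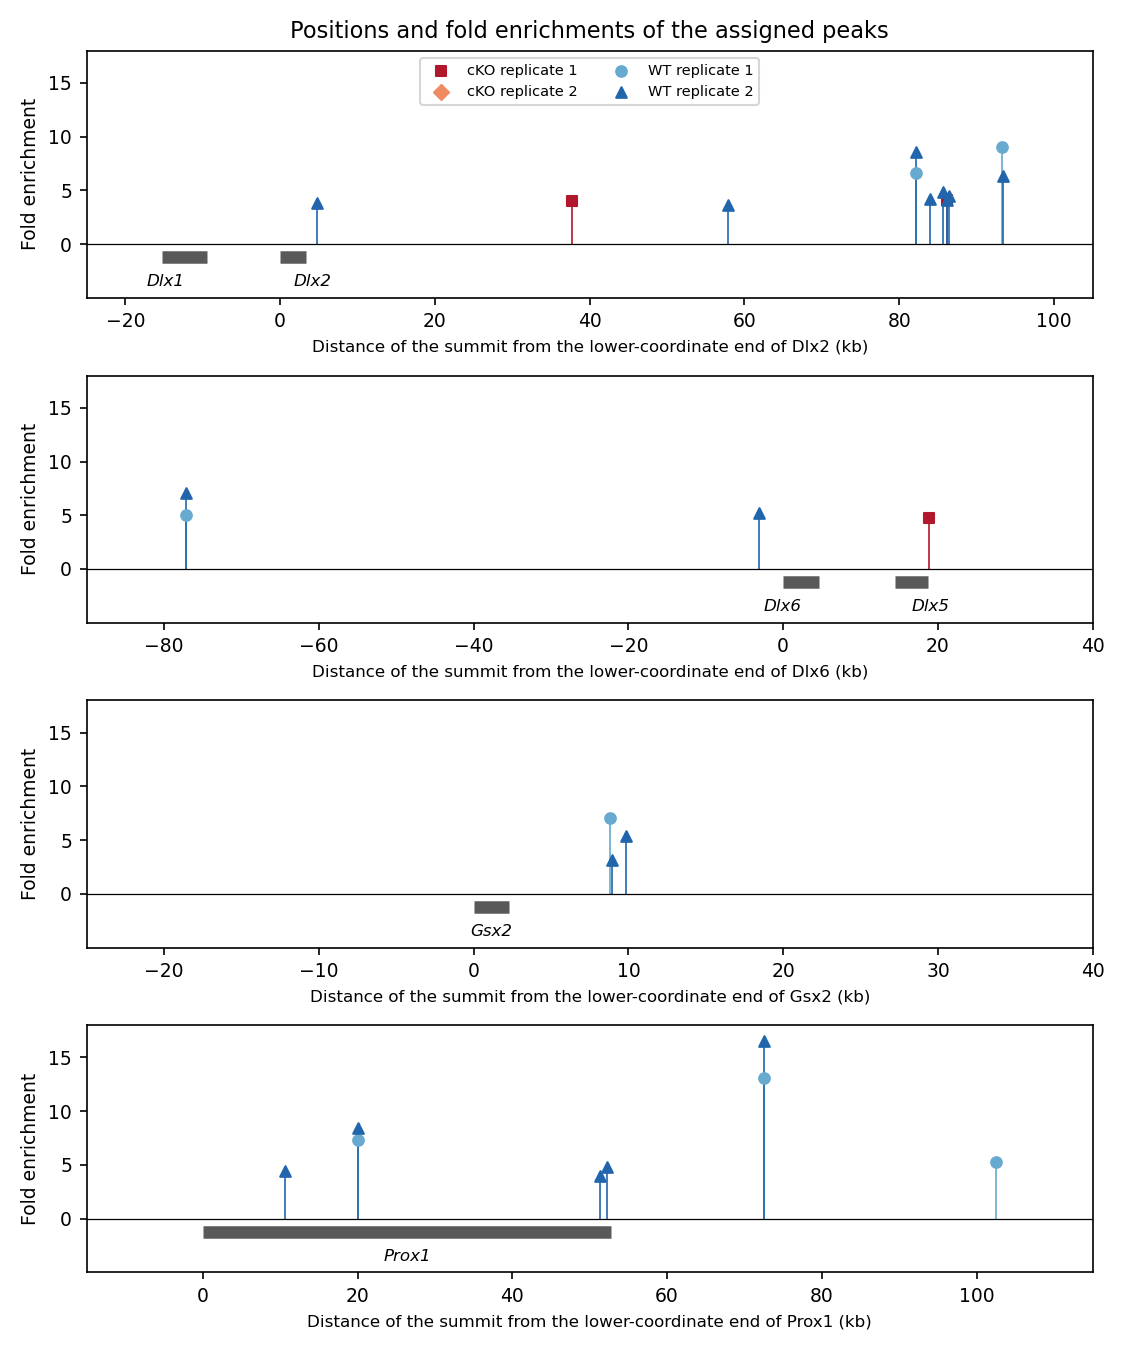
Fold enrichment of each assigned peak (vertical axis) against the distance of its summit in kb from the lower-coordinate end of Dlx2, Dlx6, Gsx2 or Prox1 (horizontal axis), with gene bodies as grey bars and libraries by colour and symbol. The Dlx2 peaks gather more than 70 kb from the gene, and the highest point is the Prox1 site at 16.5-fold in WT replicate 2.

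Dlx1, the partner of Dlx2, had 0 peaks in the 2 cKO and the 2 WT lists. Its assigned stretch was the shortest of the 9 genes, 12.04 kb, since Dlx2 and the aminopeptidase gene Metap1d lie close on either side. Within 100 kb of Dlx1 the cKO lists held 2 and 0 summits and the WT lists 1 and 11, each nearer to another gene. The split of peaks between Dlx1 and Dlx2 thus follows from distance alone. The nearest summits to Dlx1 were 47187 bp away in cKO replicate 1, 91597 bp in WT replicate 1 and 10640 bp in WT replicate 2.

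The second Dlx pair, Dlx5 and Dlx6, encodes homeodomain factors that act in maturing GABAergic neurons, and has 9830 bp between the gene bodies. Dlx6 had 0 and 0 peaks in the cKO lists and 1 and 2 in the WT lists. Its region of both WT lists, chr6:6786042-6786343, lay with its summits 77184 and 77128 bp from the gene, on the side away from Dlx5. It had 5.07-fold enrichment in WT replicate 1 and 7.06-fold in WT replicate 2 (mean 6.07 ± 1.41). WT replicate 2 also held a 5.18-fold peak 3088 bp from Dlx6, inside Dlx6os1, the non-coding gene known for the Evf RNA that modulates Dlx transcription.

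Dlx5 had a peak in cKO replicate 1 alone, with 1 and 0 peaks in the cKO lists and 0 and 0 in the WT lists. The peak of cKO replicate 1, chr6:6882075-6882325, had its summit 127 bp beyond a gene end. Dlx5 had no promoter window here, so whether this peak overlaps its promoter was not examined. Its fold was 4.72, from 19 reads over a background of 3.24 reads, close to the median of its own list (4.68). It was the only one of the 3 peaks assigned in that list that lay within 1 kb of a gene end, and cKO replicate 2 did not hold it. Of all assigned peaks of cKO replicate 1, 41.5% lay within 1 kb of a gene end. For Dlx5 the exact permutation p was 1.

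GSX2 is a homeodomain factor of lateral-eminence progenitors. Gsx2 had 0 and 0 peaks in the cKO lists and 1 and 2 in the WT lists, all 6540 to 7543 bp beyond the downstream end of the gene. The region of both WT lists, chr5:75084340-75084729, was the weakest of the 6. It had 7.01-fold enrichment in WT replicate 1, and 3.18-fold in WT replicate 2 (mean 5.09 ± 2.71), where it ranked above 1.64% of the list only. Both summits rested on 14 reads, over backgrounds of 1.14 reads in WT replicate 1 and 3.72 reads in WT replicate 2. A further WT replicate 2 peak 7543 bp beyond the gene had 5.39-fold enrichment. Within 100 kb the cKO lists held 2 and 1 summits that were nearer to another gene, the nearest at Pdgfra, a growth factor receptor gene of oligodendrocyte precursors.

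Gad1 and Gad2 encode the glutamate decarboxylases that make GABA. Gad1 had 0 and 0 peaks in the cKO lists and 1 and 0 in the WT lists. The peak of WT replicate 1, chr2:70564548-70564713, lay in the gene body 2505 bp from the annotated start, with 5.59-fold enrichment from 9 reads. Gad2 had no peak in any of the 4 lists, and no summit lay within 100 kb of it. The nearest were 374279 and 711225 bp away in the cKO replicates and 327201 and 327199 bp in the WT replicates.

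Lhx6, which encodes a LIM-homeodomain factor of medial-eminence interneurons, likewise had no peak in any list and no summit within 100 kb. The nearest summits lay 108288 and 537099 bp away in the cKO replicates and 744809 and 129421 bp in the WT replicates. Genes with no peak in any list made up 56.1% of all protein-coding genes. The stretches assigned to Lhx6 and Gad2 were 30.2 and 105.3 kb long. A site without a called peak may still hold signal below the detection limit of the lists.

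The folds of the peaks at the 9 genes lay between the 5th and 95th percentile of their own lists, except in WT replicate 2 at the upstream Prox1 site, which was above, and at the 3.18-fold Gsx2 peak, which was below. Their folds ran from 4.04 to 4.72 in cKO replicate 1, where the median of all peaks was 4.68. They ran from 5.07 to 13.1 in WT replicate 1 (median 6.84, whole list 6.43) and from 3.18 to 16.5 in WT replicate 2 (median 4.80, whole list 5.40). In position they were mostly outside genes. In the bodies of the 9 genes lay 0 of 3 peaks in cKO replicate 1, 2 of 8 in WT replicate 1 (25.0%, 95% Wilson interval 7.15 to 59.1) and 4 of 17 in WT replicate 2 (23.5%, 9.56 to 47.3). Of all peaks assigned to a gene in the same 3 lists, 57.4%, 61.3% and 61.4% lay in gene bodies. The bodies of the 9 genes ran from 2293 bp (Gsx2) to 72863 bp (Gad2), in assigned stretches of 797 kb in total. Those of Dlx1, Dlx2, Dlx5 and Dlx6 were 5869, 3347, 4268 and 4637 bp long. A share in bodies depends on body length, for which no adjustment was made. Within 1 kb of a gene end lay 1 of the 3 peaks in cKO replicate 1, 0 in WT replicate 1 and 1 in WT replicate 2, against 41.5%, 12.2% and 11.8% of all assigned peaks.

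**Figure D3:**
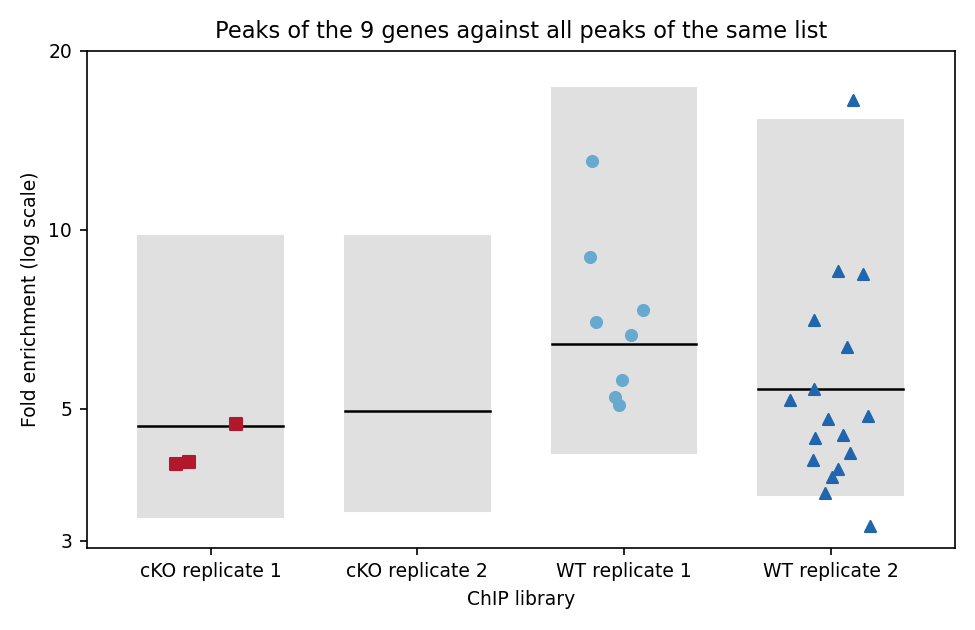
Fold enrichment on a log scale of each peak of the 9 genes (points) by library, with the 5th to 95th percentile of all peaks of that list as a grey box and its median as a line. The highest point, the Prox1 site at 16.5-fold in WT replicate 2, lies above its box, and the lowest, at Gsx2 with 3.18-fold in the same library, lies below it.

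The depth differed between the libraries. The smallest local background of a list, which stands for the genome-wide read level, was 2.95 and 2.52 reads in the cKO replicates and 0.777 and 1.78 reads in the WT replicates. A peak needed a fold of about 3.18 and 3.29 in the cKO replicates, and of 3.53 and 3.01 in the WT replicates, to pass the p-value threshold of the list where the background was at its median. Of the 6 regions found in both WT lists, 5 had both WT folds above both cKO limits, the exception being Gsx2. With the lower WT fold divided by 2, 3 of the 6 stayed above them: both Prox1 regions and the first Dlx2 region. These limits hold for the median background only, and peaks of lower fold were called where the background differed, as at 2.99-fold near Ptgs1 in cKO replicate 1 and 2.87-fold near Vps50 in cKO replicate 2. The local background of the cKO libraries at the 6 sites is not known from the lists. The median background was 3.72 and 3.26 reads in the cKO replicates and 0.985 and 2.32 reads in the WT replicates. Adding 1 to reads and background lowers a fold more where the background is small. WT folds and cKO limits are thus not on the same scale, and dividing a fold by 2 does not divide occupancy by 2. Whether a site would have been called in the cKO was not tested.

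**Figure D4:**
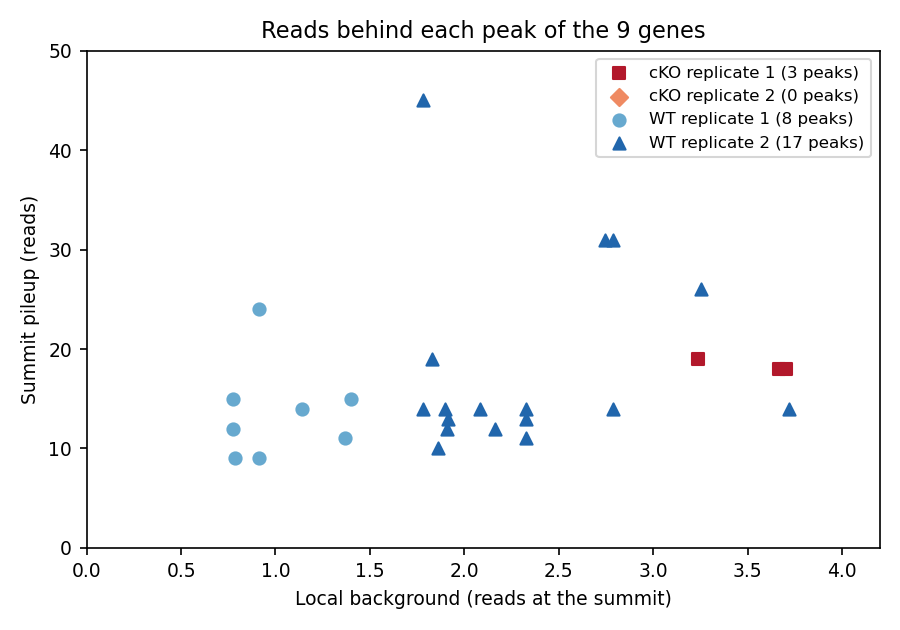
Reads at the summit (vertical axis) against the local background in reads (horizontal axis) for each peak of the 9 genes, by library. The 3 peaks of cKO replicate 1 have 18 to 19 reads over 3.24 to 3.70 reads of background, and WT replicate 1 has its peaks at lower backgrounds, from 0.777 to 1.40 reads.

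A wider set of ventral and interneuron genes was counted in the same way. Of 56 other such genes, 10 had a peak in both cKO lists (7.70% of all genes) and 38 in both WT lists (20.5% of all genes). More peaks in both WT lists than in both cKO lists were found for 34 of the 56, against 15.7% of all genes, and fewer for 0, against 1.70%. Their assigned stretches were longer, with a median of 136 kb. By role, a region in both WT lists and neither cKO list was found for 10 of 14 genes of ventral patterning and progenitors, 13 of 18 interneuron transcription factor genes, 4 of 4 genes of GABA synthesis, transport and release, 7 of 8 genes of interneuron receptors and migration, and 2 of 12 subtype marker genes. Over all genes that share was 16.6%. Among the genes with the highest such regions were Erbb4, a neuregulin receptor gene (mean fold 50.4 ± 19.0), Robo1, a Slit receptor gene (40.6 ± 3.90), Sox6, an interneuron and progenitor factor gene (26.7 ± 1.21), the chemokine receptor gene Cxcr4 (17.3 ± 5.59) and the homeobox gene Meis2 (16.0 ± 4.85). Each value is that of the highest region of its gene, and a long stretch offers more regions to pick from. Erbb4 had 8 such regions in 1277 kb, Robo1 9 in 1220 kb, Sox6 14 in 690 kb, Cxcr4 5 in 189 kb and Meis2 11 in 348 kb. Most of these genes also act in cells other than interneurons, as in radial glia or in dorsal cortical neurons, so the lists are not specific to the ventral lineage. The lists were not tested against each other. They were drawn up with earlier results of these data known. Their counts beside the shares of all genes are therefore description, and not independent evidence of binding at ventral genes.

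For the other cells of the lysate, 12 genes of the dorsal telencephalon were set beside the 9. All 12 had a peak in both WT lists (20.5% of all genes) and 2 in both cKO lists (7.70% of all genes). A region in both WT lists and neither cKO list was found for 11 (16.6% of all genes). Their median assigned stretch was 97.2 kb. Of 5 endothelial and 5 microglial genes, 1 and 1 had such a region, with median assigned stretches of 155.8 and 44.1 kb. A count of 1 in 5 is close to the share of 16.6% over all genes. These lists too were chosen with earlier results of these data known. In peak number over the 4 libraries, the gene most like Dlx2, the member with most WT peaks, was the alpha-catenin gene Ctnna3, with the same 2 and 0 peaks in the cKO replicates and 2 and 8 in the WT replicates. Another 7 genes differed from Dlx2 by 1 peak in all.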

How the data were processed

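PRDM16 ChIP-seq peak lists of 4 libraries were used. Per the submitters' processing notes, the tools were MACS2 2.1.1, Bowtie2 2.2.8, cutadapt and FastQC and the build was mm10, with no settings given. The authors deposited 1 list per library, not pooled, in which the fold is a ratio of summit to local background and significance is −log10 of the p-value and of the q-value. The deposited score is a rounded multiple of the latter and was not used. Folds describe peaks within a list.

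Peaks on unplaced contigs were left out (37 and 19 in cKO, 12 and 14 in WT). Regions were shared when 1 bp overlapped. Summit reads were solved from the deposited fold and p-value under the Poisson formula of MACS2. A whole number within 0.001 of the −log10 p-value was found for 100% of the summits tested. Genes came from RefSeq GRCm38.p6, which is mm10. Python 3.11.15, pandas 2.3.3 and scipy 1.17.1 were used. The code was tested on simulated data. All 9 genes were named, and other genes by the highest mean fold, of which 1 is not reported here. Members and lists were chosen with earlier results of these data known. P-values measure only the spread between these libraries. The replicate numbers do not pair libraries by label.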

Additional observations from a re-analysis of the deposited data

How the results depend on the processing

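The counts rest on the distance rule and on list length. With a window of 10 kb, the WT mean was 5.5 peaks, 2 of the 9 genes had a peak in both WT lists and 2 regions were in both WT and neither cKO list. With 50 kb the latter counts were 2 and 3. In gene bodies alone the WT mean was 3 peaks, and each count of genes or regions was 1. With lists of equal length the WT mean was 1 and each count was 1. Leaving out 1 library gave 0 to 2 genes with a peak in every cKO list, the 2 without cKO replicate 2. It gave 6 to 16 regions in the WT and neither cKO list, the 16 without WT replicate 1. With 1 WT list left, a region did not have to be shared between replicates. The shares of all genes with a peak in both WT lists, and with more peaks in both WT than in both cKO lists, moved too. They were 20.5% and 15.7% in the report, 12.4% and 10.1% in gene bodies alone, 5.60% and 3.80% with lists of equal length, and 34.5% and 29.1% without WT replicate 1. The shares without WT replicate 1 rest on the list of WT replicate 2 alone. In these settings 0 of the 9 genes passed the exact permutation test. That was fixed in advance, since the smallest p this exact permutation test can give is 0.33. With the replicate number as a block, 0 of the 9 could pass either, as the smallest exact permutation p that 2 pairs allow is 0.5. The numbers were not taken as pairs, as the labels do not pair the libraries. Over 21883 genes the replicate differences of cKO and WT had a correlation of -0.0263. This value cannot exclude pairing, since 56.1% of the genes had no peak in any list. Stricter q-values moved no count by over 1.5 times. The other overlap rules act on the count of regions only, which stayed at 6. Merging of overlapping lines could change nothing, as 0 neighbouring lines of a list overlapped.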
